A study of Mus musculus with 14 samples.

Results

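This account follows 9 mouse genes of fatty acid synthesis and sterol handling through the thymus during estrogen treatment. The genes were Scd1, Scd2, Fasn, Acly, Acaca, Me1, Abca1, Abcg1 and Insig1, out of 12394 genes with a probe set that carried a single gene symbol. They were picked by name, and every probe set of the Affymetrix array annotated to one of them alone was used. This gave 18 probe sets over 8 genes, because the annotation used here named no Insig1 probe set. A probe set is a group of short oligonucleotides that reads out a transcript. Of the 18, 14 probe sets of 7 genes were bright enough to be tested. The other 4 lay among the dimmest 40% of the array, and they were the only Acaca probe set, 2 of 5 for Acly and 1 of 3 for Abca1.

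The mice were females of the inbred strain C57BL/6. All had lost their ovaries to surgery (ovariectomy) on day 26 and were moved to the AIN-93G diet, which is free of phytoestrogens, before treatment began on day 30. The labels give the mice as 21 days old and do not say how that age relates to these days. Estradiol mice had 125 ng of 17β-estradiol a day in 0.02 ml of corn oil under the skin, and genistein mice ate food containing 1500 ppm of genistein. Genistein is an isoflavone of soy and a ligand of the estrogen receptors. Each treatment was sampled on days 2, 3 and 6, and the control mice were untreated and taken at day 0. Each of the 7 groups had 2 arrays, and each array held RNA pooled from 3 of the 6 mice of its group. No untreated mice of days 2, 3 and 6 were analysed here, and an effect of treatment against control cannot be told apart from one of time. Corn oil is listed for the estradiol mice only. The estradiol and genistein comparisons with control share the same 2 control arrays.

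As background, fatty acids are built in the cytosol from citrate. Acly, ATP citrate lyase, splits citrate into acetyl-CoA, and Acaca, acetyl-CoA carboxylase, makes malonyl-CoA from it. Fasn, fatty acid synthase, joins these units into palmitate with NADPH, part of which comes from Me1, the cytosolic malic enzyme. Scd1 and Scd2, the stearoyl-CoA desaturases, then place the first double bond. Transcription of these genes is driven by the factor SREBP-1c (gene Srebf1) and by the oxysterol receptors LXRα and LXRβ (Nr1h3 and Nr1h2). LXR also turns on Abca1 and Abcg1, the transporters that export cholesterol from cells such as macrophages. Insig1 holds the SREBP precursors in the endoplasmic reticulum when sterols are plentiful. Adipocytes express Scd1, Fasn and Me1 strongly, whereas most cells of a young thymus are thymocytes.

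Promoter sequences are shown for Abca1 and Fasn because these genes rose together under estradiol relative to genistein and their windows share a stretch of bases. The RefSeq promoter table for GRCm38.p6 held 7 windows for 6 of the genes, of which the 250 bases before the annotated start were used. It is not complete, and it held no window for Scd1, Scd2 or Abcg1. The Abca1 window is chr4:53159896-53160145 and the Fasn window is chr11:120824548-120824797, both on the minus strand. Each overlaps the 5′ part of the annotated span of its gene, since the start in the table lies inside that span. The windows read as follows, with the shared stretch in capitals.
Abca1: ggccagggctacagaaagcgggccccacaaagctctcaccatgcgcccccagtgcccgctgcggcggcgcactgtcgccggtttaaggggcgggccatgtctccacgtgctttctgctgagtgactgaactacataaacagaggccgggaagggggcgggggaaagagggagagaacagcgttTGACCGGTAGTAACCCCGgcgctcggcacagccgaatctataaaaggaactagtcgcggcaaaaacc
Fasn: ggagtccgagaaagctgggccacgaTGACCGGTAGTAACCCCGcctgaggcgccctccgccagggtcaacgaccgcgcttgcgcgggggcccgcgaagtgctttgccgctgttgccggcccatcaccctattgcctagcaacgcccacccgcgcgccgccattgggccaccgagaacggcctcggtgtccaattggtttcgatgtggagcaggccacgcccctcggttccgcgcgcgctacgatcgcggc

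The shared stretch was 18 bases long, in the same orientation in both windows. It ran from 67 to 50 bases upstream of the Abca1 start and from 225 to 208 bases upstream of the Fasn start. Among the 20 pairs of windows from different genes on the list the next longest shared stretch was 12 bases, and of 32851 windows in the whole table only these 2 held it. The search was made after the windows had been seen. Read on the other strand, the stretch contains GGGTTA and CGGTCA with 4 bases, CTAC, between them. LXR is known to bind direct repeats of the half-site AGGTCA spaced by 4 bases, and published work has described such repeats in the promoters of both Abca1 and Fasn. The pair in the shared stretch departs from the ideal repeat at 3 positions, 2 in the first half-site and 1 in the second, and 18.5% of all windows held a repeat at least as close. Whether the stretch binds a factor was not tested.

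Other motifs were searched on both strands of the member windows. The E-box CACGTG lay 147 to 142 bases upstream of the Abca1 start and 101 to 96 bases upstream of the Insig1 start, and 6.02% of all windows held one. The CCAAT box was found at 3 places in the Fasn window, 2 of which overlap each other, and once each in the Insig1 window and in 1 of the 2 Me1 windows, against 33.8% of all windows. A sterol regulatory element, a direct repeat of AGGTCA spaced by 4 with at most 1 mismatch, and an inverted repeat of it spaced by 3 with at most 1 mismatch (the estrogen response element) were found in none of the 7 windows. Of all windows, 1.05%, 0.24% and 0.128% held these 3 motifs. These are descriptions of letters in a short window.

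Values below are signal intensities after every array had been brought to one common mean, and tests are those of limma on the log2 scale, with p adjusted over all 13575 probe sets tested and a call at an adjusted p under 0.05. Differences are on the scale of log2(signal + 16), which understates the change of dim probe sets, and their errors are standard errors (SE). Of the 14 arrays, 3 had been deposited at a different overall scale, with means after trimming 2% at each end of 223.4 (estradiol day 2 replicate 2), 300.3 (estradiol day 3 replicate 1) and 334.6 (estradiol day 3 replicate 2) against 150.04 on the other 11. All 3 are estradiol arrays, so results over the mean of days are also given without them. That leaves no estradiol array of day 3 and 1 of day 2, so the mean of estradiol days, and both means where estradiol is set against genistein, are then of days 2 and 6. For the gene lists this alternative was chosen after seeing the data. With all 14 arrays, 14.8% of the array had an unadjusted limma p under 0.05 for estradiol against control and 17.1% for estradiol against genistein. Without the 3 arrays that share is not given, so counts of list genes at such a p are not set against it. The ratio of 3′ to 5′ Gapdh signal, a sign of RNA quality, was 0.867 to 1.5, highest in genistein day 6 replicate 1.

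Over the mean of the 3 days, estradiol arrays differed from control arrays in 3 of the 14 probe sets, all higher. These were 1 probe set each of Scd1, Me1 and Abca1. Across the array 0.604% of probe sets were called in this comparison. Estradiol arrays differed from genistein arrays over the mean of days in 5 of the 14, all higher, where 1.41% of the array was called. Those 5 were both Scd1 probe sets and 1 each of Fasn, Me1 and Abca1. For the Me1 probe set and the dimmer Scd1 probe set the filter on dim probe sets favoured a high estradiol value, as given below. Genistein arrays differed from control arrays in 0 of the 14 by limma, where 0.0368% of the array was called. At an unadjusted p under 0.05 there were 2 of the 14, against 11.1% of the array. The median log2 difference of the 14 was 0.37 for estradiol against control, 0.08 for genistein against control and 0.19 for estradiol against genistein, while the median of all probe sets was within 0.01 of 0 in these 3 comparisons.

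**Figure D1:**
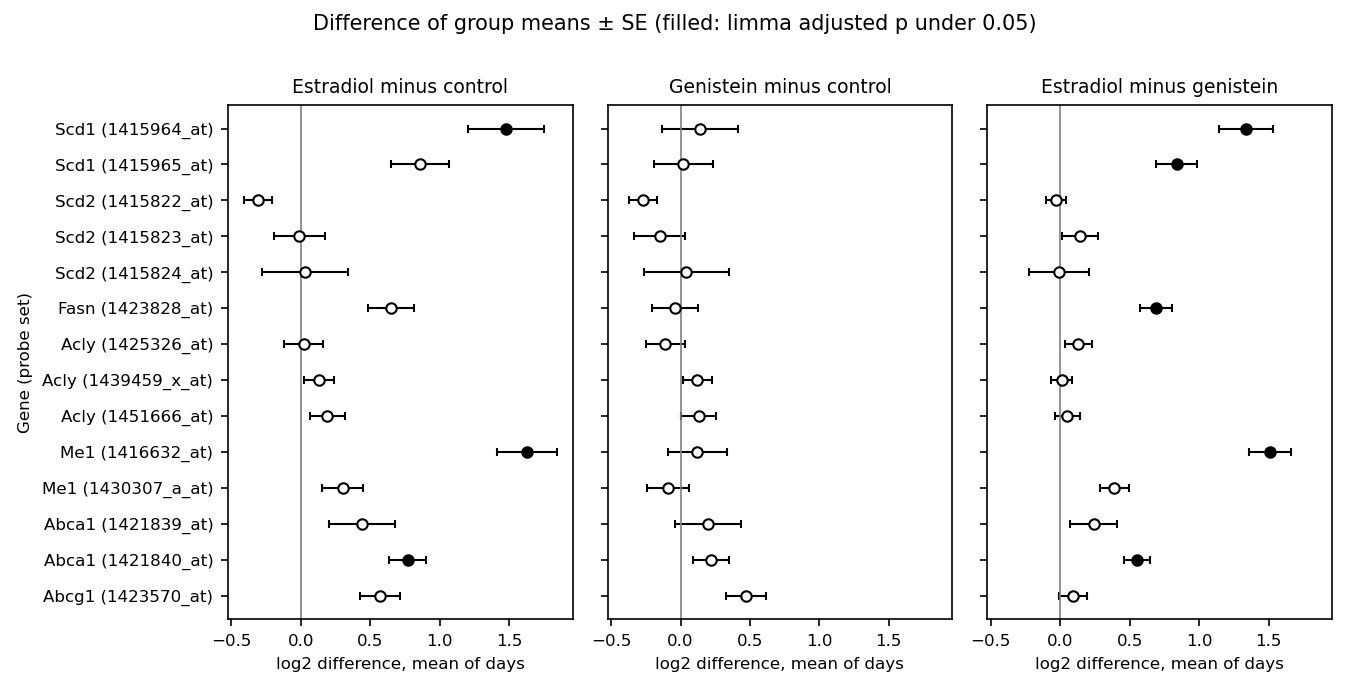
Differences of group means over days 2, 3 and 6 on the log2(signal + 16) scale for the 14 tested probe sets, with SE bars; filled points passed limma's adjusted p of 0.05. Filled points stand to the right of 0 for Scd1, Me1 and Abca1 in the left panel (estradiol minus control) and for Scd1, Fasn, Me1 and Abca1 in the right panel (estradiol minus genistein), and the middle panel (genistein minus control) has none.

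Single days gave fewer calls. Against control, estradiol called 1 of 14 at day 2 (0.0884% of the array), 1 at day 3 (0.0663%) and 2 at day 6 (0.656%). Estradiol against genistein called 1 of 14 at day 2 (0.081% of the array). It called 0 at day 3 (0.0147%) and 0 at day 6 (0.265%). On these days 5 and 4 of the 14 had an unadjusted p under 0.05, against 6.7% and 13.4% of the array. Genistein against control called 0 of 14 at day 2 (0.0147%), day 3 (0.00737%) and day 6 (0.00737%). An unadjusted p under 0.05 was seen for 1, 1 and 3 of the 14, against 11.8%, 5.73% and 10.4% of the array. No probe set of the 14 passed limma's F test for change over the days of estradiol (0.0221% of the array called), over the days of genistein (0%) or for the interaction of treatment and day (0%). In these F tests 0, 4 and 1 had an unadjusted p under 0.05, against 6.92%, 5.79% and 4.24% of the array.

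Me1, the malic enzyme (chr9:86581363-86695914), was called in more comparisons than any other gene of the list. Probe set 1416632_at read 142 and 116 on day 2 of estradiol, 84.6 and 144 on day 3, and 85.5 and 119 on day 6. Genistein arrays read 15.8 and 13.6, then 34.0 and 50.2, then 42.0 and 31.4 on the same days, and control arrays 19.6 and 32.7. Every estradiol array lay above every genistein and every control array, while genistein and control arrays overlapped. The mean signal was 115 ± 25.9 with estradiol (SD, n = 6), against 31.2 ± 14.4 with genistein (n = 6) and 26.2 ± 9.26 in control (n = 2). This probe set passed the filter on dim probe sets only through its estradiol arrays. Its estradiol groups had mean log2(signal + 16) of 6.87 to 7.17, against a lowest tested mean of 5.92. The genistein groups, at 4.94 to 5.85, and control, at 5.38, lay below that floor, so the filter favoured a high estradiol value. The log2 difference of estradiol was 1.63 ± 0.214 from control (limma adjusted p = 0.00524) and 1.51 ± 0.152 from genistein (limma adjusted p = 0.000395).

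Me1 also passed against control at day 2 (log2 difference 1.79 ± 0.263, limma adjusted p = 0.0221), day 3 (1.61, adjusted p = 0.0446) and day 6 (1.49, adjusted p = 0.0224). Against genistein it passed at day 2, where the difference was 2.23 ± 0.263 (limma adjusted p = 0.0104). At days 3 and 6 the differences from genistein were 1.14 and 1.16 (adjusted p = 0.346 and 0.101), and the interaction of treatment and day had an unadjusted p of 0.016 and an adjusted p of 1. The day 2 call against control was lost without estradiol day 2 replicate 1, estradiol day 2 replicate 2 or control replicate 2, and the day 3 call without any of 11 of the 14 arrays. The day 6 calls of Me1 and Abca1 were lost without estradiol day 6 replicate 1, estradiol day 6 replicate 2 or control replicate 2. The day 2 call against genistein was lost without estradiol day 2 replicate 1 or genistein day 2 replicate 1. Both calls over the mean of days held in all 26 alternatives that tested this probe set, where the differences were 0.98 to 2.11 from control and 0.91 to 1.96 from genistein, the lowest with a pseudocount of 64.

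The second Me1 probe set, 1430307_a_at, moved less. Its signals were 221 and 210, 156 and 218, and 153 and 192 on estradiol arrays of days 2, 3 and 6. Genistein arrays read 137 and 128, 130 and 160, and 136 and 162, and control arrays 155 and 147. At day 2 estradiol lay above every genistein and control array. At day 3 both estradiol arrays lay above both controls but overlapped genistein, and at day 6 they overlapped both. The difference over the mean of days was 0.39 ± 0.105 from genistein (limma adjusted p = 0.0844) and 0.30 ± 0.149 from control (adjusted p = 0.373), short of the threshold in both. The Me1 probe sets correlated across the 14 arrays (Pearson r of log2 values 0.848, a description over arrays that share groups).

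Scd1 (chr19:44394450-44407709), the desaturase that makes oleate and palmitoleate, had the next largest difference from control. Probe set 1415964_at read 1053 and 1020 on day 2 of estradiol, 596 and 1099 on day 3, and 1022 and 927 on day 6. On days 2, 3 and 6 of genistein it read 349 and 224, 170 and 411, and 650 and 597, and in control 372 and 285. All estradiol arrays lay above both control arrays, and 5 of 6 lay above every genistein array, the exception being estradiol day 3 replicate 1. The mean signal was 953 ± 184 with estradiol (SD, n = 6), against 400 ± 194 with genistein (n = 6) and 329 ± 61.5 in control (n = 2).

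The Scd1 log2 difference of estradiol was 1.34 ± 0.194 from genistein (limma adjusted p = 0.00391) and 1.48 ± 0.274 from control (limma adjusted p = 0.0291). Genistein differed from control by 0.14 ± 0.274 over the mean of days (adjusted p = 0.88). By day, genistein stood -0.21, -0.28 and 0.90 ± 0.336 from control on days 2, 3 and 6 (adjusted p = 0.406 at day 6). The 2 genistein arrays of day 6 lay above those of days 2 and 3 and above both control arrays, although limma's F test over the genistein days had an adjusted p of 0.695 (unadjusted p = 0.00547). Estradiol exceeded genistein by 1.83 at day 2, 1.55 at day 3 and 0.63 at day 6, with adjusted p of 0.0649, 0.253 and 0.439 and an interaction adjusted p of 1.

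The Scd1 call against control was lost with no filter on dim probe sets (1.48, adjusted p = 0.0669). It was also lost without estradiol day 3 replicate 2 (1.33, adjusted p = 0.0665), estradiol day 6 replicate 1 (1.45, 0.0735), estradiol day 6 replicate 2 (1.5, 0.0639) or control replicate 2 (1.29, 0.389), within an adjusted p of 0.000469 to 0.389 over its 27 alternatives. Without the 3 arrays at another scale the Scd1 difference, now of days 2 and 6, was 1.59 from control (adjusted p = 0.0629) and 1.24 from genistein (adjusted p = 0.0746), and neither passed.

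A second, dimmer Scd1 probe set, 1415965_at, gave the same order. It read 73.8 to 138 over the estradiol arrays (mean 94 ± 24, SD, n = 6), against 23.0 to 63.5 over the genistein arrays (46.1 ± 15.5, n = 6) and 39.2 and 48.1 in control. The estradiol arrays did not overlap the other groups. The filter on dim probe sets favoured a high estradiol value here too. Mean log2(signal + 16) was 6.62 to 6.88 in the estradiol groups, against a lowest tested mean of 5.92. Control (5.89) and genistein day 3 (5.48) lay below that floor, and genistein days 2 and 6 (6.11 and 6.16) a little above it. The difference of 1415965_at was 0.84 ± 0.148 from genistein (limma adjusted p = 0.0137) and 0.86 ± 0.210 from control (adjusted p = 0.0819). The call against genistein was lost without estradiol day 3 replicate 2 (0.71, adjusted p = 0.0501) or estradiol day 6 replicate 1 (0.79, 0.0612). By day the difference from genistein was 0.51, 1.40 and 0.61 on days 2, 3 and 6. Leaving out the 3 arrays at another scale, and day 3 with them, gave 0.53 (adjusted p = 0.309), within an adjusted p of 0.000129 to 0.309 over its alternatives. The Scd1 probe sets correlated with r = 0.877 over the 14 arrays.

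Scd2 (chr19:44293676-44306864), the neighbouring desaturase gene that is prominent in brain and in neonatal tissues of mice, did not pass in any comparison. Probe set 1415822_at read 848 to 1135 on estradiol arrays and 990 to 1192 on genistein arrays, against 1208 and 1325 in control. Both treated groups lay below both control arrays. The difference over the mean of days was -0.31 ± 0.103 for estradiol (limma adjusted p = 0.186) and -0.27 ± 0.103 for genistein (adjusted p = 0.38), and estradiol differed from genistein by -0.03 ± 0.073 (adjusted p = 0.856). Lying below both controls on all 6 arrays was seen for 1 of the 14 probe sets with each treatment, and for 6.96% of the array with estradiol and 4.19% with genistein. Taken over all days, the 2 other Scd2 probe sets overlapped between estradiol, genistein and control arrays, with differences of -0.15 to 0.14 in the 3 comparisons over the mean of days. By day, 1415823_at stood -0.28, 0.33 and 0.38 from genistein with estradiol on days 2, 3 and 6. It did not overlap on days 3 and 6 (limma adjusted p = 0.853 and 0.492). Probe set 1415822_at correlated with them at only r = 0.125 and -0.299, whereas those 2 correlated with each other at r = 0.717, so 1415822_at stands apart. The estradiol difference of 1415822_at without the 3 arrays at another scale was -0.30 from control and -0.00 from genistein, while 1415824_at gave -0.38 and -0.49. That alternative keeps 1 estradiol array of day 2. On it 1415824_at read 56.0, against 98.2 to 163 on the other estradiol arrays.

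Fasn (chr11:120805958-120825166), which makes palmitate, followed Scd1 at a smaller size. Its probe set 1423828_at read 627 and 588 on day 2 of estradiol, 501 and 724 on day 3, and 639 and 594 on day 6. Under genistein it read 408 and 361, 275 and 414, and 373 and 424 on these days, and in control 418 and 351. Every estradiol array exceeded every genistein and control array, and the genistein and control arrays overlapped. The mean signal was 612 ± 73.0 with estradiol (SD, n = 6), against 376 ± 55.3 with genistein (n = 6) and 384 ± 46.9 in control (n = 2).

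The Fasn difference of estradiol was 0.69 ± 0.116 from genistein (limma adjusted p = 0.0107), a 1.63-fold ratio of mean signals, and 0.65 ± 0.164 from control, which did not pass (adjusted p = 0.0934). It was alike on the 3 days, at 0.64, 0.63 and 0.66 against control, and the F test over the estradiol days had an adjusted p of 0.999. Genistein differed from control by -0.04 ± 0.164 (adjusted p = 0.947). Without the 3 arrays at another scale the difference from genistein, of days 2 and 6, was 0.65 (adjusted p = 0.117), and it was 0.73 (0.135) when the deposited scale was fitted as a factor. In the other 25 alternatives it stayed called.

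**Figure D2:**
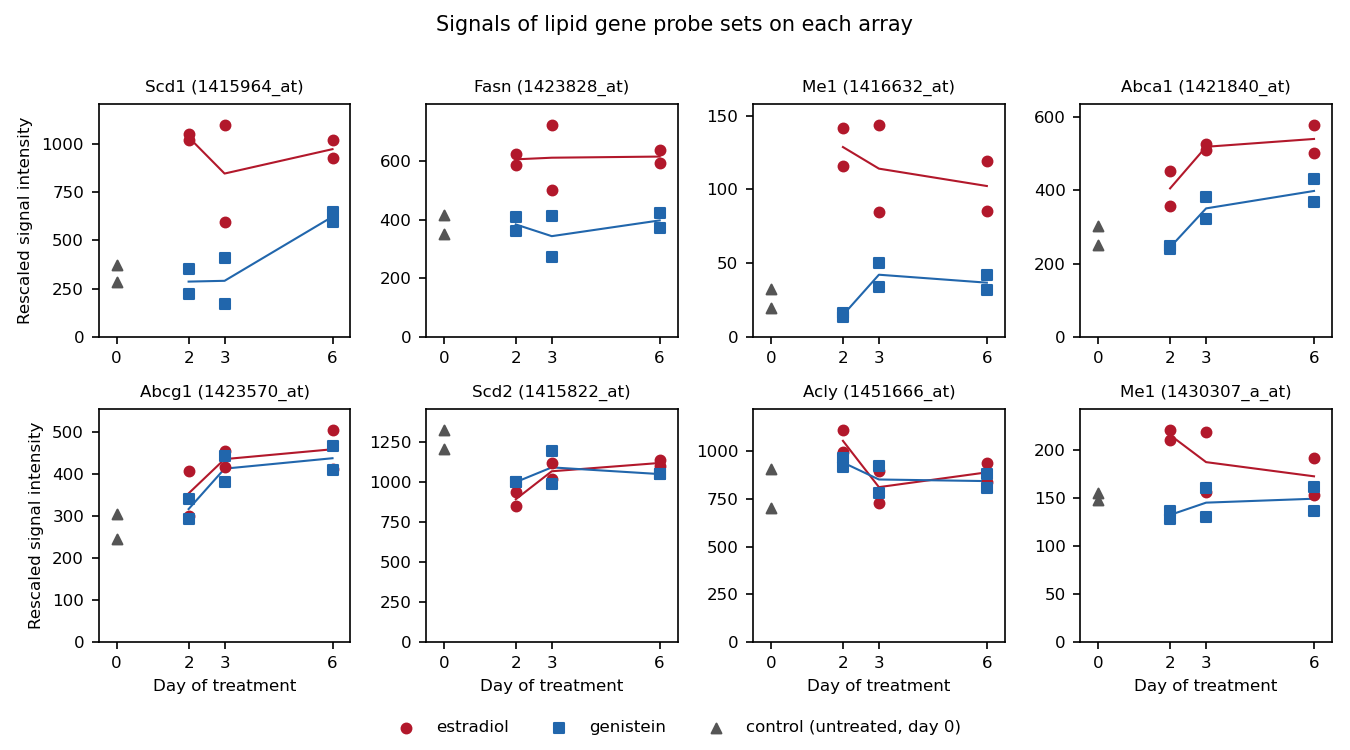
Rescaled signal intensity of 8 probe sets on each array (points) against the day of treatment, with lines through the mean of the 2 arrays; red circles are estradiol, blue squares genistein and grey triangles the untreated control at day 0, and each vertical axis starts at 0. Estradiol points lie above genistein and control points for Fasn and for Me1 1416632_at, while Abcg1 runs at about the same level with both treatments and Scd2 and Acly overlap between them.

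The enzymes that feed Fasn did not pass over the mean of days. Acly (chr11:100476352-100528000) had 3 tested probe sets, and the brightest, 1451666_at, read 727 to 1113 on estradiol arrays (mean 920 ± 133, SD, n = 6), 783 to 968 on genistein arrays (880 ± 71.7, n = 6), and 906 and 705 in control. All 3 groups overlapped. Over the mean of days, the 3 Acly probe sets had log2 differences of 0.02 to 0.19 for estradiol against control and -0.11 to 0.13 for genistein against control. Estradiol against genistein gave 0.01 to 0.13, and the lowest limma adjusted p in these 3 comparisons was 0.523. At day 2 both estradiol arrays of 1451666_at lay above both controls, by 0.39 ± 0.156 (adjusted p = 0.352, unadjusted p = 0.025). The Acly differences without the 3 arrays at another scale were -0.12 to 0.31 from control (lowest adjusted p = 0.449) and -0.02 to 0.16 from genistein. The 2 dim Acly probe sets read 13.6 or less on every array. Acaca (chr11:84129635-84401651) had 1 probe set, 1427595_at, at 37.3 to 51.2 on estradiol arrays, 31.2 to 44.9 on genistein arrays and 44.9 and 46.3 in control. It lay just below the filter (mean 42.4, against 44.5 for the dimmest probe set tested), so its change was not tested.

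On the sterol export side, Abca1 (chr4:53030789-53159988), which loads cholesterol onto apolipoprotein A-I, rose with estradiol. Probe set 1421840_at read 454 and 358 on day 2 of estradiol, 528 and 511 on day 3, and 503 and 579 on day 6. Genistein gave 241 and 248, 381 and 321, and 367 and 430 on these days, and control 252 and 304. Estradiol arrays all lay above both controls, and 5 of 6 lay above every genistein array. The mean signal was 489 ± 75.7 with estradiol (SD, n = 6), against 331 ± 75.7 with genistein (n = 6) and 278 ± 36.8 in control (n = 2).

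The Abca1 difference of estradiol was 0.77 ± 0.132 from control (limma adjusted p = 0.0203) and 0.55 ± 0.0935 from genistein (limma adjusted p = 0.0107). By day, estradiol stood 0.52, 0.87 and 0.92 above control, called at day 6 (limma adjusted p = 0.0224). Genistein stood -0.17, 0.32 and 0.50 from control on the same days, with adjusted p of 0.689, 0.877 and 0.366. The call against control was lost without estradiol day 3 replicate 1 (0.76, adjusted p = 0.0542), estradiol day 3 replicate 2 (0.78, 0.0636), estradiol day 6 replicate 2 (0.74, 0.0639), control replicate 1 (0.64, 0.0542) or control replicate 2 (0.90, 0.112), within an adjusted p of 0.000461 to 0.112 over its alternatives. The call against genistein was lost without estradiol day 6 replicate 2 (0.52, adjusted p = 0.0547). Without the 3 arrays at another scale the differences, of days 2 and 6, were 0.80 from control (adjusted p = 0.0685) and 0.64 from genistein (0.0764).

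The other tested Abca1 probe set did not pass. Probe set 1421839_at read 74.9 to 141 on estradiol arrays, 52.8 to 126 on genistein arrays and 82.2 and 75.7 in control, with a difference of 0.44 ± 0.238 between estradiol and control (limma adjusted p = 0.407) and 0.24 ± 0.168 between estradiol and genistein (adjusted p = 0.491). It lay above both controls on 5 of 6 estradiol arrays and also on 5 of 6 genistein arrays. There was no overlap with control on days 3 and 6 of estradiol and on days 2 and 3 of genistein. These differences were 0.18 and -0.04 (adjusted p = 0.835 and 0.959) once the 3 arrays at another scale were left out. It correlated with 1421840_at at only r = 0.288. Probe set 1450392_at was too dim to test, with a mean signal of 33.2.

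Abcg1 (chr17:31057694-31117984), which exports cholesterol to larger lipoprotein particles, was at much the same level under both treatments. Probe set 1423570_at read 407 and 301 on day 2 of estradiol, 416 and 455 on day 3, and 413 and 505 on day 6. Genistein arrays read 340 and 293, 382 and 444, and 466 and 409, and control arrays 304 and 245. On 5 of 6 arrays of each treatment the signal was above both controls, and estradiol and genistein overlapped on each day. The difference was 0.57 ± 0.146 for estradiol against control (limma adjusted p = 0.097), 0.47 ± 0.146 for genistein against control (adjusted p = 0.337) and 0.09 ± 0.103 for estradiol against genistein (adjusted p = 0.685), none of which passed. With the 3 arrays at another scale left out estradiol stood 0.63 from control (adjusted p = 0.176) and 0.21 from genistein (0.588). Abcg1 and Abca1 correlated at r = 0.712 over the 14 arrays, as a description. Whether Abcg1 differed from Abca1 in its response was not tested. Insig1 (chr5:28071412-28078662) has no value here.

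Across the list, 5 of 14 probe sets had all 6 estradiol arrays above both control arrays, against 8.04% of the array. They were both Scd1 probe sets, Fasn, Me1 1416632_at and Abca1 1421840_at. For 3 of 14 all 6 estradiol arrays lay above all 6 genistein arrays, against 0.965% of the array, and these were Scd1 1415965_at, Fasn and Me1 1416632_at. The filter favoured a high estradiol value for Me1 1416632_at and Scd1 1415965_at. Their place in both counts is therefore not free of it.

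The regulators of these genes did not pass in any comparison over the mean of days. Of 7 regulators, 6 had a probe set and were tested (Srebf1, Srebf2, Scap, Insig2, Nr1h3 and Mlxipl, but not Nr1h2), and 0 were called by limma. Srebf1, the gene of SREBP-1, read 315 to 475 on estradiol arrays, 412 to 538 on genistein arrays and 409 and 419 in control, with a difference of -0.12 ± 0.0995 between estradiol and genistein (adjusted p = 0.578). Nr1h3, the gene of LXRα, read 54.0 to 67.4 with estradiol and 55.2 to 71.3 with genistein, against 42.9 and 44.6 in control, and differed by -0.03 ± 0.102 between the treatments (adjusted p = 0.926). Its differences from control were 0.34 with estradiol and 0.37 with genistein (adjusted p = 0.29 and 0.39). Mlxipl, the gene of the glucose-responsive factor ChREBP, differed from control by 0.56 ± 0.266 with estradiol and 0.78 ± 0.266 with genistein (adjusted p = 0.346 and 0.348). The median difference of the 6 was 0.14 for estradiol, 0.16 for genistein and 0.02 between them. Without the 3 arrays at another scale the estradiol medians were -0.06 against control and -0.14 against genistein. That alternative also drops day 3 and keeps 1 estradiol array of day 2, replicate 1. On it the 6 regulators summed to 1020, against 1340 to 1467 on the other estradiol arrays. What changed the sign was not tested. Without the 3 arrays Srebf1, Nr1h3 and Mlxipl stood -0.28, 0.02 and -0.30 from genistein with estradiol.

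Among 17 other tested genes of fatty acid and triglyceride synthesis, 0 passed for estradiol or genistein against control over the mean of days. Only 1, Thrsp, was higher with estradiol than with genistein. Across the array 0.604%, 0.0368% and 1.41% were called in these 3 comparisons. Thrsp encodes the lipogenic protein Spot 14. It read 129 to 520 on estradiol arrays and 37.3 to 188 on genistein arrays, overlapping, with a difference of 1.21 ± 0.274 (limma adjusted p = 0.0478). Elovl6, the elongase that extends palmitate, read 142 to 230 with estradiol and 101 to 164 with genistein (difference 0.36 ± 0.0958, adjusted p = 0.0789). Thrsp without the 3 arrays at another scale stood 1.37 above genistein (adjusted p = 0.0807), and by limma 0 of the 17 were called for estradiol, with 2 against control and 3 against genistein at an unadjusted p under 0.05. With all 14 arrays 14.8% and 17.1% of the array had such a p in these 2 comparisons, so counts of 2 and 3 do not set the 17 apart. The medians of the 17 with all arrays were 0.08 for estradiol against control, 0.03 for genistein against control and 0.04 for estradiol against genistein.

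Of 10 other LXR target genes tested, 2 were higher with estradiol than in control and the same 2 were higher than with genistein. For genistein against control 0 passed. Across the array 0.604%, 1.41% and 0.0368% were called in these 3 comparisons. Lpl, lipoprotein lipase, which releases fatty acids from circulating triglycerides, read 409 to 706 on estradiol arrays and 266 to 453 on genistein arrays, against 252 and 253 in control. Its difference was 1.03 ± 0.150 from control and 0.70 ± 0.106 from genistein (limma adjusted p = 0.0068 and 0.00565). Pltp, the phospholipid transfer protein, read 801 to 1249 with estradiol and 578 to 793 with genistein, against 545 and 687 in control, with differences of 0.72 ± 0.145 and 0.53 ± 0.102 (limma adjusted p = 0.0426 and 0.0246). Of the 10, only Lpl passed without the 3 arrays at another scale, at 1.23 from control and 0.82 from genistein (adjusted p = 0.00715 and 0.0118), while Pltp gave 0.84 and 0.69 (0.0763 and 0.0768). The medians of the 10 were 0.28, 0.21 and 0.03.

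Several genes of cholesterol synthesis were lower. Of 16 tested genes of synthesis and uptake, 4 were lower with estradiol than in control and 0 higher. For genistein against control 0 passed, and 1 was lower with estradiol than with genistein. Across the array 0.604%, 0.0368% and 1.41% were called in these 3 comparisons. Cyp51, Idi1, Fdps and Sqle, which act along the path to lanosterol and from it, fell by 1.21, 1.05, 0.96 and 0.95 with estradiol (limma adjusted p = 0.0213, 0.0206, 0.00524 and 0.00524). Fdps read 173 to 240 with estradiol and 205 to 359 with genistein, against 384 and 422 in control. Its log2 difference between estradiol and genistein was -0.41 ± 0.0937 (limma adjusted p = 0.0478). With the 3 arrays at another scale left out 2 of the 16 were lower with estradiol than in control, Cyp51 at -1.54 and Sqle at -0.97 (adjusted p = 0.013 and 0.0451), whereas Fdps and Idi1 gave -0.86 and -0.82 (0.0629 and 0.175). Fdps then stood -0.37 from genistein (adjusted p = 0.317), and 0 of the 16 passed there, with 4 at an unadjusted p under 0.05. The medians of the 16 were -0.36 for estradiol against control, -0.25 for genistein against control and -0.19 for estradiol against genistein.

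Markers of other cells moved with these genes. Marker counts over the mean of days stand beside 0.604% of the array called for estradiol against control. For genistein against control it was 0.0368%, and for estradiol against genistein 1.41%. In bulk tissue a change in the number of cells of a type and a change in RNA per cell cannot be told apart. Over 9 tested adipocyte markers, 3 were higher with estradiol than in control (Slc2a4, Lpl and Cebpa) and 1 with genistein than in control (Slc2a4). Against genistein, 4 were higher with estradiol (Fabp4, Lpl, Ucp1 and Cebpa). The medians of these 3 comparisons were 0.65, 0.34 and 0.60. Slc2a4 read 11 and 15.9 in control, below the 44.5 of the dimmest probe set tested. It read 55.6 to 94.5 with estradiol and 63.2 to 80.6 with genistein, so the filter favoured a high treated value. Ucp1 overlapped between the treatments, at 20.7 to 544 with estradiol and 3.5 to 216 with genistein. Without the 3 arrays at another scale Lpl and Slc2a4 passed against control, and Fabp4 and Lpl against genistein, with estradiol medians of 0.88 and 0.64. The summed signal of the 13 adipocyte markers on the array was 1885 to 3491 on estradiol arrays (median 2431), 1244 to 2122 on genistein arrays (median 1502) and 1395 and 1397 in control. Among the defining markers, Adipoq read 54.8 to 182 with estradiol and 20.3 to 108 with genistein, against 64.2 and 128 in control, while Lep stayed at 16.2 or less and Pparg at 12.1 or less on every array. The part of adipocytes in the Scd1, Fasn and Me1 results was not tested.

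Macrophage markers moved beside Abca1. Of 12 tested, 4 were higher with estradiol than in control (Csf1r, Mertk, Vcam1 and Hmox1), 0 passed for genistein against control, and 4 were higher with estradiol than with genistein (Mertk, Mrc1, Vcam1 and Hmox1), with medians of 0.61, 0.29 and 0.32. Without the 3 arrays at another scale limma called 0 of the 12 for estradiol against control or genistein, with 10 and 7 at an unadjusted p under 0.05 and medians of 0.61 and 0.35. The summed signal of the 15 macrophage markers was 4488 to 4912 with estradiol, 3371 to 4382 with genistein and 3303 and 3553 in control. Adgre1, which encodes F4/80, read 144 to 195 with estradiol and 152 to 180 with genistein, against 153 and 184 in control. Lyz2 read 889 to 1293 with estradiol and 748 to 1042 with genistein, against 970 and 1207 in control. Both overlapped between the groups. Marco stayed at 9.1 or less on every array, and Spic and Cd163, with mean signals of 21.2 and 26.5, were also too dim to test. Thymic epithelial markers were also higher with estradiol, 4 of 12 against control and 2 of 12 against genistein, with summed signals of 10927 to 12903 for estradiol, 9860 to 10723 for genistein and 8476 and 8950 for control. Without those 3 arrays 0 of 12 passed by limma in either comparison, with 9 and 7 at an unadjusted p under 0.05. The 9 thymocyte markers, which check the tissue label, summed to 11837 to 14103 with estradiol, 13028 to 15039 with genistein and 12231 and 13327 in control, and of them 0 passed against control with either treatment and 1 was lower with estradiol than with genistein (0 without those 3 arrays by limma, with 1 at an unadjusted p under 0.05). Of 2 tested markers of steroid-producing or parathyroid cells, 0 passed in these 3 comparisons. The part of these cells in the results was not tested.

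**Figure D3:**
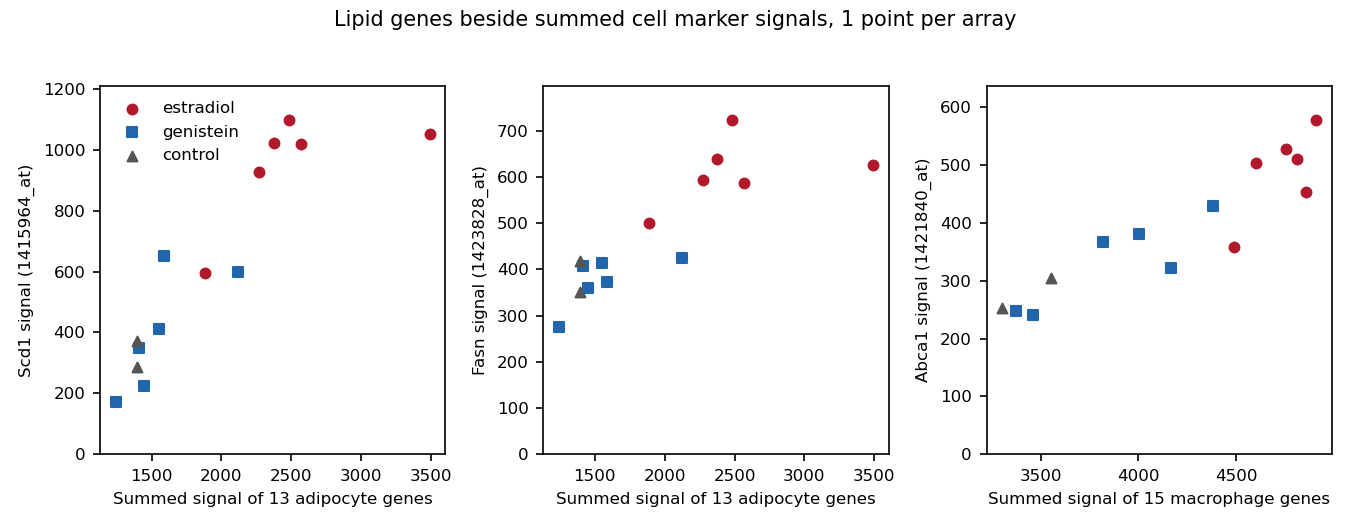
Signal of Scd1 and Fasn against the summed signal of 13 adipocyte markers, and of Abca1 against the summed signal of 15 macrophage markers, with 1 point per array; red circles are estradiol, blue squares genistein and grey triangles control. Most estradiol arrays lie to the upper right, with macrophage sums of 4488 or more and adipocyte sums that overlap those of genistein (1885 to 3491 against 1244 to 2122). Exceptions in height are estradiol day 3 replicate 1 for Scd1 (596) and estradiol day 2 replicate 2 for Abca1 (358), which lie below some genistein arrays.

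The genes whose signals were most alike over the 14 arrays were looked up among 8213 others by Pearson r of log2 values. For Scd1 these were Cdkn1a (0.927), Fasn (0.922) and Lpl (0.92), and for Fasn they were Scd1 (0.922), Cdkn1a (0.896) and Igfbp5 (0.866). Me1, by its brighter probe set, was most like Myadm (0.873), Fasn (0.837) and Thrsp (0.835). Abca1 was most like Mpeg1 (0.969), Slc40a1 (0.943) and Plek (0.941). The arrays fall into treatment groups, so these values describe shared group patterns as well as shared variation between arrays. Scd1 and Fasn thus paired with each other, while Abca1 correlated with Scd1 at 0.692 and with Fasn at 0.628, and Scd2 with Scd1 at -0.459.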

How the data were processed

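Signals of 14 Affymetrix arrays were used as deposited by the authors, in linear intensity units of MAS5 5.0, per the submitters' processing notes. Members and gene lists were chosen with earlier results of these data known. The 2%-trimmed mean was 150.04 on 11 arrays and differed on 3, for a reason not stated in the labels, and all arrays were multiplied to 150.04. Of 22690 probe sets, 64 were controls, and the dimmest 40% of the rest were dropped, blind to group, so that 13575 were tested. The filter used the mean over all arrays, so a probe set could pass through the groups where it is high, as Me1 1416632_at did. The log2 of signal plus a pseudocount of 16 was fitted with limma 3.58.1 (R 4.3.3), with 1 mean per group, contrasts by day and over the equal mean of days, eBayes with a trend and Benjamini-Hochberg adjustment over all probe sets. The fit had 7 residual degrees of freedom (13.74 after moderation), and 2 arrays a group set the precision. The procedure was tested on simulated data.

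Symbols came from the platform annotation: 20393 probe sets had 1 symbol, 691 several and 1606 none, and no member probe set was shared with another gene. All member probe sets are described, and a gene in a list is represented by its brightest probe set, at most 4 being named in a pathway list by smallest p. The labels call the 2 pools of a group independent biological replicates. Replicate numbers were not used to pair samples in the main fit. Over 21 pairs of groups the correlation of deviations was -0.256 to 0.351 (median -0.00631), and 5 exceeded 0.1. With 2 arrays a group these values cannot exclude pairing between some groups. Alternatives were other pseudocounts, filters and scalings, no trend, the replicate block, only the groups compared, the 3 arrays left out or their scale as a term, the Gapdh ratio as a covariate, and each array left out in turn. Plots were made in matplotlib 3.10.9 (python 3.11.15).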

Additional observations from a re-analysis of the deposited data

Results flagged for a closer look

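Differences between the treatments passed limma's test for 6 results. Me1 1416632_at was higher on estradiol than on genistein arrays at day 2, by 2.23 on the log2 scale. Over the mean of days estradiol exceeded genistein by 1.51 for Me1 1416632_at, 1.34 for Scd1 1415964_at, 0.84 for Scd1 1415965_at, 0.69 for Fasn 1423828_at and 0.55 for Abca1 1421840_at. The effects of the 2 treatments against the shared controls differed by these amounts.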

How the results depend on the processing

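Counts are of the 14 member probe sets called, and each setting was compared with the counts in the report. The share of the whole array called in each setting is not printed beside them. These counts therefore show how calls depend on the setting, and cannot set these genes apart from the rest of the array. In 160 of 193 such counts the value stayed within 1.5 times. These include counts of 0 that stayed 0, as for genistein against control over the mean of days. The share therefore does not show that the calls themselves were steady. With the values as deposited the counts were 2 (estradiol day 2 against control), 14 (day 3 against control), 1 (day 6 against control), 10 (mean of days against control), 2, 14 and 13 (estradiol against genistein at day 2, at day 3 and over the mean of days), 13 (change over the estradiol days) and 12 (interaction), and Scd2 1415822_at turned from -0.03 to 0.42 for estradiol against genistein (adjusted p = 0.00343); there the 3 arrays keep their higher scale by construction. Without those arrays, or with their scale as a term, estradiol called 0 against control at day 2 and 1 against control and 1 against genistein over the mean of days, in each case Me1, and with the term 0 against control at day 3. Without those arrays the mean is of days 2 and 6 only. Against control, no filter gave 0, 0 and 1 at days 2, 3 and 6, the lowest 60% left out 0, 0 and 1, and only the groups compared 0, 0 and 1. The lowest 60% left out also gave 0 at day 2 and 3 over the mean of days against genistein, and did not test the called Me1 probe set. Against control at day 3 a pseudocount of 1 and quantile normalization gave 0 and centring on medians 2, and the Gapdh covariate gave 0 at day 2. At day 2 against genistein, centring and only the groups compared gave 2. The cause was not tested. The replicate block changed no count of calls: 3 against control and 5 against genistein over the mean of days. Leaving out each array in turn, with the lone array of its group assumed to vary like the others, gave 0 to 2, 0 to 1, 0 to 3 and 1 to 3 for estradiol against control at days 2, 3 and 6 and over the mean, 0 to 2 and 4 to 5 against genistein at day 2 and over the mean, and 0 to 0 elsewhere. Dim probe sets, as of Acaca, set the limit of what could be tested.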
